A study of Mus musculus with 6 samples.

Results

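The genes described here mark Schwann cells, the glia of peripheral nerves, and their neural crest precursors. There are 8 of them (Mbp, Prx, Cdh19, Erbb3, Gfra3, Ngfr, Foxd3 and Egr2), taken by symbol from the 23107 genes of the deposited table. The list they come from has 2 further rows, which are not analysed here. The aortic valves came from 4-month-old mice of an outbred strain. The mutants (3 libraries) carried 2 alleles, the transgene caAcvr1, which encodes a constitutively active form of the BMP type I receptor Acvr1 once Cre has acted on it, and the knock-in driver Nfatc1Cre. Nfatc1Cre recombines in the endocardium and its derivatives and in cells at the leaflet-wall junction. The controls (3 libraries) are labelled wild type, and the study's methods define controls as offspring of the same cross with either allele alone or with neither. The sources used here do not say which of these were sequenced, nor how many animals went into a library, so that p-values measure only the spread between these libraries.

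Schwann cells of the heart descend from neural crest and follow the autonomic and sensory axons that reach the valves. Axons instruct them through neuregulin, which is read by the receptor pair ErbB2 and ErbB3, and myelinating Schwann cells switch on the zinc-finger factor Egr2 (Krox20), which drives the genes of the myelin sheath. Precursors and non-myelinating Schwann cells instead keep adhesion molecules and growth factor receptors such as cadherin-19 and the neurotrophin receptor p75. In bulk tissue, fewer cells of a type and less RNA per cell cannot be told apart.

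Promoters in the RefSeq set (GRCm38.p6) were matched for 4 of the 8 genes, namely Foxd3, Prx, Egr2 and Ngfr. The 250 bases before each start were searched on both strands for the letters GTGGGNG, the core that EGR zinc fingers read, and ACAAAG, a core read by Sox factors. The EGR core was found before Prx and before 1 of the 5 listed starts of Egr2, and both windows are shown because Prx is a myelin gene and Egr2 the regulator measured beside it. Capitals mark the EGR core, which on the strand printed reads as its reverse complement.
Prx, chr7:27499074-27499323, plus strand: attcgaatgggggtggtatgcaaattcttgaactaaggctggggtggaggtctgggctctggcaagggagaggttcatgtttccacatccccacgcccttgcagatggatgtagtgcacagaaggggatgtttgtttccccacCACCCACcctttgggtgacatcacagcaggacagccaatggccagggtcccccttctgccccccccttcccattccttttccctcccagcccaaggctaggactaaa
Egr2, chr10:67535249-67535498, plus strand: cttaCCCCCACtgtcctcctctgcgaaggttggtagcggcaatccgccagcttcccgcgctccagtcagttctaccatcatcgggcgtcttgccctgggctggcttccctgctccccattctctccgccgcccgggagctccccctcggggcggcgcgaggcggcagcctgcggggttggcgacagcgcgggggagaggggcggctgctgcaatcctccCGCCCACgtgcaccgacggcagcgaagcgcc
The match before Prx begins 107 bases before the start, and those before Egr2 begin 246 and 31 bases before it. Of all 32851 promoters in the set, 28.1% hold the EGR core and 16.5% the Sox core in such a window, and the Sox core was in none of the windows of these 4 genes. A match is a description of letters only.

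Total counts per library ranged from 32218345 to 55728852. Levels are given as CPM, the share of a gene in a library's counts scaled to a common total, after TMM scaling in edgeR. A gene was tested where 3 or more libraries held 10 or more counts, which left 15354 genes, and of these 0 had an adjusted p under 0.05 (0%) in the quasi-likelihood F test of edgeR, mutants against controls, with Benjamini-Hochberg adjustment. At an unadjusted p under 0.05 there were 529 (3.45%), 244 (1.59%) with a higher and 285 (1.86%) with a lower level in the mutants. In DESeq2 26 genes (0.169%) passed the adjusted threshold and 683 (4.45%) had an unadjusted p under 0.05. Acvr1, which the table lists in 1 row, so that transgene and endogenous transcripts are not set apart, was read at 49.1, 60.5 and 67.4 CPM in control replicates 1, 2 and 3 and at 56.5, 57.9 and 49.9 CPM in the mutants, and the groups overlapped, so that its counts did not check the labels. Cardiac muscle markers summed to between 13270 and 43425 CPM per library and valve interstitial markers to between 13260 and 17714 CPM, so that cardiac muscle RNA was present beside that of the valve in every library. Averaged over the 6 libraries, Dcn, a matrix proteoglycan, was at 905 CPM per kb of exon and Nppa, an atrial hormone, at 5433 CPM per kb. The level of Nppa was uneven, 12343 CPM in control replicate 3 and between 1501 and 4231 CPM in the others. Control replicate 2 stood apart from the other controls in several lists of markers, with the lowest cardiac muscle sum, 13270 CPM, and the highest sums for smooth muscle (13980 CPM) and mesothelium (1259 CPM).

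Across the valves of the mutants, no member of the set was called different from the controls. All 8 passed the minimum count. In the mutants 5 were higher and 3 lower, 0 of the 8 had an unadjusted p under 0.05 in edgeR or in DESeq2, and in 0 of the 8 did the groups separate completely, where 8.87% of all genes tested did (4.04% higher and 4.83% lower in the mutants). Of all genes tested 52.2% were higher in the mutants by any amount, against 5 of 8 here. The median log2 fold change was 0.14 for the members and 0.01 for all genes tested. Without mutant replicate 1 the median of the members was -0.24. Each adjusted p was 0.999 in edgeR, and exact two-sided permutation tests over the libraries gave p from 0.2 for Egr2 to 0.9 for Erbb3, where the smallest that 3 against 3 libraries allow is 0.1.

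**Figure D1:**
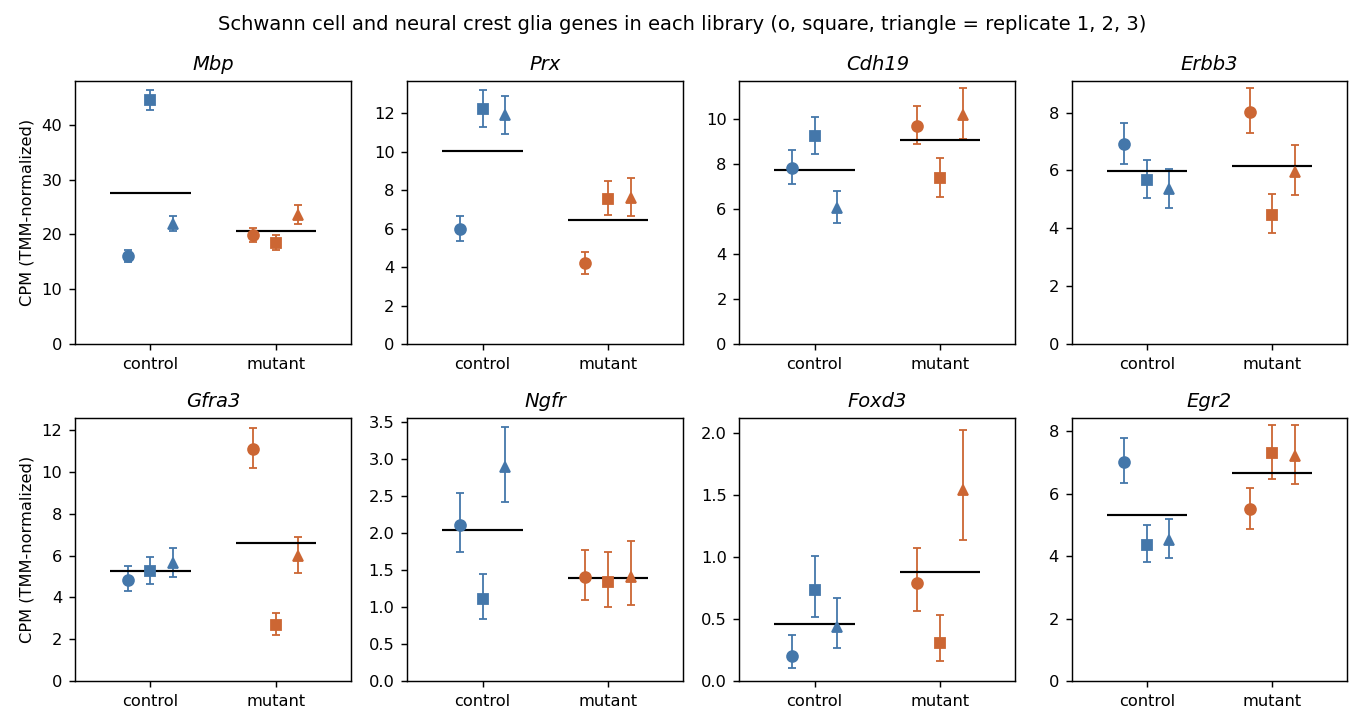
Level of each of the 8 genes in CPM (y axis, from 0) in the 3 control and 3 mutant libraries (circle, square and triangle for replicates 1, 2 and 3), with exact Poisson 95% intervals that cover counting error only and a line at each group mean. In every panel the control and mutant libraries overlap, and the highest point of the Mbp panel is control replicate 2 at 44.5 CPM.

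Measured per kilobase of exon, the members were scarce. Ranks by this measure depend on the exon length used, 8469 bases for Mbp and 1997 bases for Gfra3. In CPM, Mbp was above Gfra3 in every library. The mean level over the 6 libraries was highest for Gfra3, at 2.97 CPM per kb, followed by Mbp at 2.84, Cdh19 at 1.96, Egr2 at 1.76, Prx at 1.48, Erbb3 at 1.01, Ngfr at 0.497 and Foxd3 at 0.287 CPM per kb. The ranges over the 6 libraries overlapped between all neighbours in this order. For the first pair they ran from 1.34 to 5.58 CPM per kb for Gfra3 and from 1.89 to 5.26 for Mbp. The order of this pair differed between the groups. Gfra3 had a mean of 2.63 and Mbp of 3.25 CPM per kb in the controls, and 3.31 and 2.44 in the mutants. The highest value of Gfra3, 5.58 CPM per kb, was that of mutant replicate 1. Among the genes tested the members ranked between the percentiles 10.3 (Foxd3) and 40 (Gfra3) by level per kb. Summed over the members, the CPM was 50.9, 83.2 and 58.8 in the controls and 60.7, 49.6 and 63.5 in the mutants. Without Mbp the sums were 34.9, 38.6 and 36.8 in the controls and 40.8, 31.1 and 39.9 in the mutants, so that the high sum of control replicate 2 came mostly from Mbp.

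Of the sheath genes, Mbp encodes myelin basic protein, which holds the layers of compact myelin together. It lies on chromosome 18 of GRCm38 from 82475146 to 82585637, and the same locus makes the golli transcripts of immune and neural cells, which the per-gene counts do not set apart. Mbp was read at 16.0, 44.5 and 22 CPM in control replicates 1, 2 and 3 and at 19.9, 18.5 and 23.5 CPM in the mutants. The mutants lay close together, within a ratio of 1.27, while control replicate 2 was 2.78 times control replicate 1, far outside the counting interval of 15.0 to 17.1 CPM of the latter. The log2 fold change was -0.41 (standard error, SE, 0.36, 95% interval -1.26 to 0.44). It rested on control replicate 2, without which it was 0.12. In that library the smooth muscle and mesothelial marker sums were also the highest, and their part in the Mbp level was not tested.

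Prx encodes periaxin, the scaffold that ties the outer Schwann cell membrane to the dystroglycan complex and is needed to keep myelin stable. It lies on chromosome 7 from 27499324 to 27520214. Prx was read at 5.99, 12.2 and 11.9 CPM in the controls and at 4.21, 7.56 and 7.60 CPM in the mutants. Control replicates 2 and 3 stood above all mutants, and control replicate 1 lay among them. The log2 fold change of -0.64 (SE 0.35, 95% interval -1.47 to 0.19) had the smallest unadjusted p of the set, 0.113 in edgeR, and it was -0.40 without mutant replicate 1. Without control replicate 1 it was -0.90, which had an unadjusted p of 0.023 and an adjusted p of 0.949 in edgeR. Prx shares 300 exonic bases with Gm15541, a gene on the opposite strand, and without strand-specific counting, which the sources used here do not state, reads from these bases cannot be told apart.

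Cadherin-19, encoded by Cdh19 (chromosome 1, 110888326 to 110977584), joins Schwann cell precursors to each other and stays on in non-myelinating cells. It was read at 7.84, 9.26 and 6.07 CPM in the controls and 9.71, 7.39 and 10.2 CPM in the mutants. The highest library, mutant replicate 3, and the lowest, control replicate 3, differed by a ratio of 1.68, which only Egr2, at 1.67, undercut among the members. The log2 fold change was 0.24 (SE 0.22, 95% interval -0.29 to 0.76), with 0.09 without control replicate 3 and 0.39 without control replicate 2.

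Erbb3, the neuregulin receptor of the Schwann lineage (chromosome 10, 128567523 to 128589652), was read at 6.90, 5.68 and 5.35 CPM in the controls and at 8.03, 4.48 and 5.96 CPM in the mutants. The mutants spanned the whole range of the controls and beyond. Its log2 fold change of 0.04 (SE 0.26, 95% interval -0.57 to 0.66) was the smallest of the set, and the interval still allows folds from 0.67 to 1.58. Gfra3 (chromosome 18, 34689898 to 34720387) encodes the co-receptor that binds artemin and presents it to Ret. It was read at 4.85, 5.26 and 5.65 CPM in the controls, within a ratio of 1.17, and at 11.1, 2.68 and 6.0 CPM in the mutants, within a ratio of 4.15. Mutant replicate 1 lay above and mutant replicate 2 below all controls, each outside the counting intervals of the control libraries. The log2 fold change was 0.33 (SE 0.47, 95% interval -0.77 to 1.44), with -0.28 without mutant replicate 1 and 0.71 without mutant replicate 2.

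Ngfr encodes p75, the low-affinity neurotrophin receptor of immature and non-myelinating Schwann cells (chromosome 11, 95568818 to 95587735). It was read at 2.11, 1.11 and 2.89 CPM in the controls and at 1.41, 1.34 and 1.41 CPM in the mutants. The mutant libraries were nearly equal, though on only 73, 53 and 45 counts. Control replicate 2 lay below them, so that the groups overlapped although the other 2 controls were higher. Its counting interval, 0.837 to 1.44 CPM, covered every mutant level, so that this step was within counting error. The log2 fold change was -0.55 (SE 0.41, 95% interval -1.51 to 0.41), and -0.84 without control replicate 2 (unadjusted p = 0.0482, adjusted p = 1 in edgeR). Without control replicate 3 it was -0.21.

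**Figure D2:**
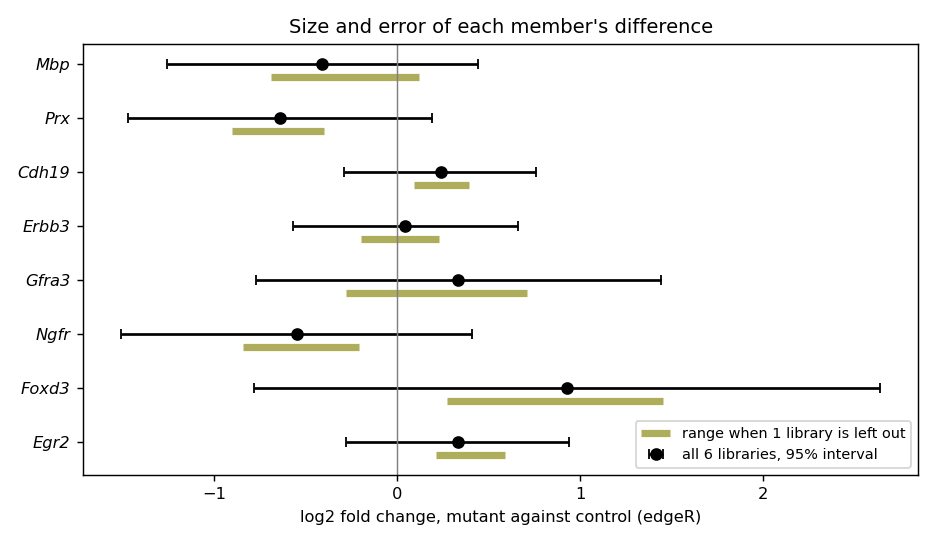
Log2 fold change of each member, mutants against controls (x axis), with its 95% interval from the edgeR fit (black) and the range over the 6 fits that each left out 1 library (olive). Every 95% interval crosses 0, from Prx at -0.64 to Foxd3 at 0.93, and the olive range crosses 0 for Mbp, Erbb3 and Gfra3.

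Of the transcription factors, Foxd3 keeps neural crest cells and Schwann cell precursors undifferentiated. It is a gene of 1 exon on chromosome 4 from 99656299 to 99658622, which shares 89 exonic bases with the gene Gm23366 on the same strand. It was the scarcest member, with 11, 37 and 20 counts in the controls and 41, 12 and 49 counts in the mutants. These are levels of 0.205, 0.732 and 0.435 CPM and of 0.792, 0.304 and 1.54 CPM. Mutant replicate 3 was the highest and control replicate 1 the lowest, a ratio of 7.49, and the log2 fold change of 0.93 (SE 0.72) had a 95% interval of -0.78 to 2.64. Without mutant replicate 3 it was 0.27, and without control replicate 2 it was 1.45. The interval spans folds from 0.58 to 6.22. Libraries of the same group differed by more than counting error, with counting intervals of 0.157 to 0.53 CPM in mutant replicate 2 and of 1.14 to 2.03 CPM in mutant replicate 3.

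Egr2 (chromosome 10, 67535475 to 67542188) is the master regulator of myelination and is also an early response gene of immune and connective tissue cells. It was read at 7.03, 4.37 and 4.52 CPM in the controls and at 5.50, 7.31 and 7.22 CPM in the mutants. All 3 mutants lay above the median control, and control replicate 1 lay among them. The log2 fold change was 0.33 (SE 0.26, 95% interval -0.28 to 0.94), and it kept its sign when single libraries were left out, at its lowest 0.21 (control replicate 2 left out) and at its highest 0.59 (control replicate 1 left out). In control replicates 2 and 3, Egr2 was low (4.37 and 4.52 CPM) and Prx was high (12.2 and 11.9 CPM). For each gene these 2 libraries lay within the counting error of each other. Mutant replicate 1 did not share this opposite pattern, with the lowest Prx (4.21 CPM) and with Egr2, at 5.50 CPM, below the other mutants. Over the 6 libraries the pair gave r = -0.54 (exact permutation p = 0.296).

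**Figure D3:**
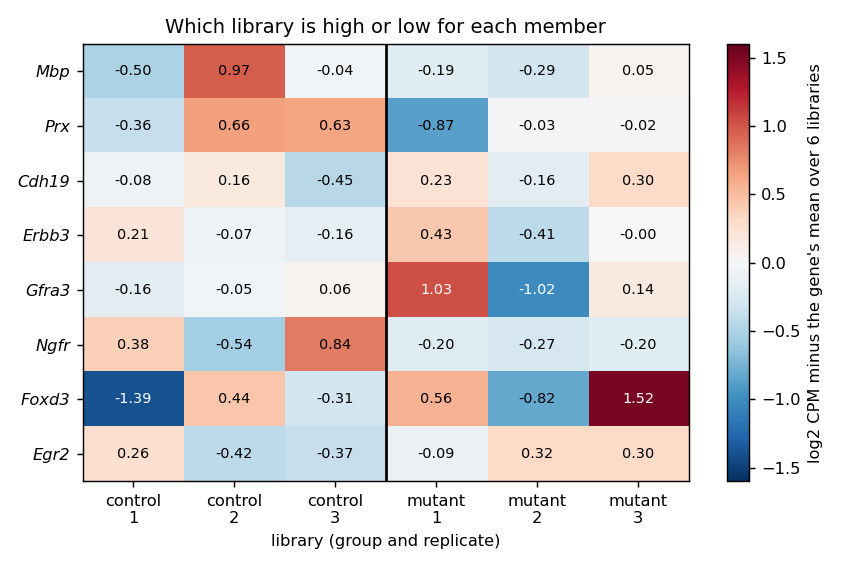
Log2 CPM of each member (rows) in each library (columns, controls left of the black line) minus the gene's mean over the 6 libraries, in log2 units. No column is red or blue throughout: control replicate 2 is high for Mbp and Prx and low for Ngfr and Egr2, and mutant replicate 1 is high for Gfra3 and low for Prx. Mutant replicate 2 comes nearest to a uniform column, below the gene's mean for 7 of 8 members, all but Egr2.

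Correlations between members were of both signs. Over the 6 libraries, 15 of the 28 pairs of members had a positive and 13 a negative Pearson correlation of log2 CPM, with a median of 0.02, and 0 pairs had a permutation p under 0.05. The highest r was that of Erbb3 with Gfra3 (r = 0.86, exact permutation p = 0.0569, adjusted p = 0.669 over the 28 pairs; Spearman's rho = 0.60, exact permutation p = 0.242). Without the 2 libraries farthest from the median of Erbb3 the sign turned, to r = -0.64, so that the relation rested on mutant replicates 1 and 2. Cdh19 and Foxd3 gave r = 0.71 (exact permutation p = 0.115, adjusted p = 0.669; rho = 0.77, exact permutation p = 0.103), and r = 0.91 without the 2 libraries farthest from the median of Cdh19. Gfra3 and Foxd3 gave r = 0.53 (exact permutation p = 0.267, adjusted p = 0.755; rho = 0.83, exact permutation p = 0.0583), and r = 0.83 without the 2 libraries farthest from the median of Gfra3. Cdh19 and Gfra3 gave r = 0.46 (exact permutation p = 0.322, adjusted p = 0.755; rho = 0.60, exact permutation p = 0.242), and r = 0.88 without the 2 farthest. The lowest r was that of Cdh19 with Ngfr, at -0.77 (exact permutation p = 0.075, adjusted p = 0.669; rho = -0.31, exact permutation p = 0.564), and -0.43 without the 2 farthest. Mbp and Prx gave r = 0.64 (exact permutation p = 0.174, adjusted p = 0.755; rho = 0.77, exact permutation p = 0.103), and r = 0.37 without the 2 libraries farthest from the median of Mbp. Egr2 had r = -0.66 with Mbp (exact permutation p = 0.104, adjusted p = 0.669; rho = -0.54, exact permutation p = 0.297), and r = -0.16 without those libraries. Its r with Prx was -0.54 (exact permutation p = 0.296, adjusted p = 0.755; rho = -0.49, exact permutation p = 0.356), and r = -0.89 without the 2 libraries farthest from the median of Prx. All 6 libraries enter these values, both genotypes together, except for each r given without the 2 farthest libraries.

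Among other genes of the Schwann lineage, a list of 47 symbols was used, of which 45 were in the table and 40 could be tested. Higher in the mutants were 24 and lower 16, with a median log2 fold change of 0.05, and 0 had an adjusted p under 0.05 in edgeR or DESeq2. The groups separated for 3 genes that were higher (Drp2, Cadm4 and Cadm3) and 2 that were lower (Fabp7 and Pllp), 12.5% of the genes tested against 8.87% of all genes, and nothing particular to the list is read from this. Drp2, which encodes the dystrophin-related protein that periaxin binds at the Schwann cell membrane, was read at 15.6, 12.2 and 20.7 CPM in the controls and at 21.3, 30.3 and 24.6 CPM in the mutants. Its log2 fold change was 0.65 (SE 0.22, unadjusted p = 0.0232, adjusted p = 0.999 in edgeR), while that of Prx, its partner, was -0.64. Cadm4, the adhesion molecule with which Schwann cells grip axons, had a log2 fold change of 0.68 (SE 0.28, unadjusted p = 0.0462, adjusted p = 0.999 in edgeR). Fabp7, a fatty acid carrier of immature glia, had a log2 fold change of -0.78 (SE 0.48), and -0.48 without mutant replicate 2.

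Further well-known genes of the lineage, named for that and not for how they moved, overlapped between the groups. Sox10, the factor that specifies all neural crest glia and melanocytes, was read at 7.41, 7.34 and 8.55 CPM in the controls and at 11.6, 3.54 and 5.34 CPM in the mutants. As with Erbb3 and Gfra3, it was highest in mutant replicate 1 and lowest in mutant replicate 2. Pmp22, a membrane protein of compact myelin that many connective tissue cells also make, was read at between 291 and 408 CPM. S100b ran from 9.55 to 21.2 CPM and Dhh, the hedgehog ligand with which Schwann cells build the nerve sheath, from 26.3 to 39.9 CPM.

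**Figure D4:**
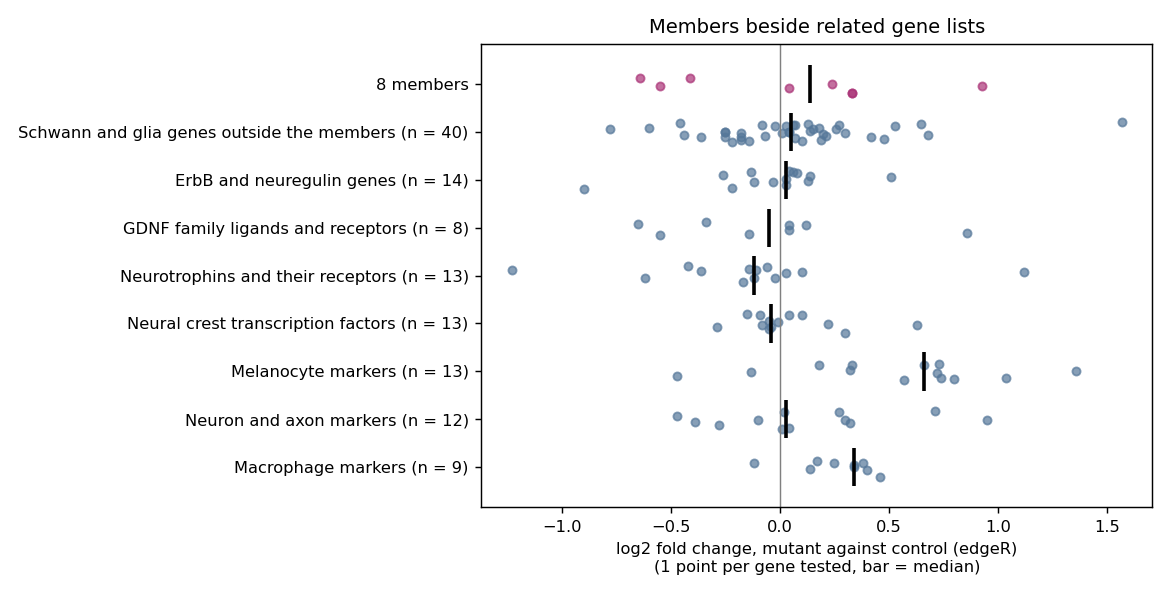
Log2 fold change, mutants against controls (x axis), of the 8 members and of the tested genes of 8 related lists (1 point per gene, black bar at the median). The members and the further Schwann genes are spread on both sides of 0, with medians of 0.14 and 0.05, while the medians of the melanocyte and macrophage markers are 0.66 and 0.34.

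Partners of the receptors were examined in lists of their own. In the neuregulin and ErbB list 8 of 14 genes tested were higher and 6 lower in the mutants (median log2 fold change 0.03), and 0 passed the adjusted threshold. Nrg1, a ligand that ErbB3 binds, was read at 1.36, 12.6 and 3.44 CPM in the controls and at 3.49, 2.28 and 3.55 CPM in the mutants. It was high in control replicate 2, where Mbp and the smooth muscle and mesothelial marker sums were also the highest. The log2 fold change of Nrg1, -0.90 (SE 0.74), was 0.38 without that library. Which cells made Nrg1 there was not tested. The adaptor Shc1 and the phosphatase Ptpn11, which act below ErbB and many other receptors, had log2 fold changes of -0.26 (SE 0.13) and 0.51 (SE 0.21), each with separate groups and an adjusted p of 0.999 in edgeR. Without mutant replicate 3 they were -0.16 and 0.22. The third gene of the list with separate groups, the ligand Nrg4, named after its values were seen, was read at 5.58, 6.27 and 5.48 CPM in the controls and at 5.23, 4.38 and 5.27 CPM in the mutants. The 3 genes are 21.4% of those tested in the list, against 8.87% of all genes.

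In the GDNF family list 4 of 8 genes were higher and 4 lower (median -0.05), and in 0 did the groups separate. Artn, the ligand of Gfra3, was read at 2.16, 1.80 and 1.39 CPM in the controls and at 0.946, 1.16 and 1.57 CPM in the mutants (log2 fold change -0.55, SE 0.36). Gdnf and Gfra4 had log2 fold changes of 0.86 (SE 0.48) and -0.34 (SE 0.24), which were 0.54 without mutant replicate 2 and -0.20 without mutant replicate 1. Ret, the signaling receptor of the family, was named for that role and was read at between 5.58 and 12.4 CPM. In the neurotrophin list 3 of 13 genes were higher and 10 lower (median -0.12), again with 0 separated. For Ntf3 (neurotrophin-3), which can bind p75, the log2 fold change of -0.62 (SE 0.38) was -0.10 without control replicate 2. Sorcs1, of the sortilin family, and Ngfrap1, whose product binds p75, had log2 fold changes of -1.23 (SE 0.54) and -0.14 (SE 0.10).

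Of the neural crest transcription factors, 5 of 13 tested were higher and 8 lower (median -0.04), with 0 past the adjusted threshold. Snai1, which acts in the emigration of crest cells, was the only one of them with separate groups, at 6.40, 5.85 and 7.05 CPM in the controls and 8.94, 7.51 and 7.35 CPM in the mutants (log2 fold change 0.30, SE 0.18). Tfap2a and Sox9 had log2 fold changes of 0.63 (SE 0.53) and 0.22 (SE 0.19), which were 0.22 without mutant replicate 3 and 0.04 without control replicate 2. Of the relatives and cofactors of Egr2, 3 of 4 tested were higher and 1 lower (median 0.02), and in 0 did the groups separate. Their log2 fold changes were 0.18 (SE 0.15) for Egr1, 0.04 (SE 0.38) for Egr3 and -0.20 (SE 0.20) for the co-repressor Nab1. Egr1 was 0.05 without mutant replicate 1, Egr3 was -0.21 without mutant replicate 2 and Nab1 was -0.03 without control replicate 2.

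Other cells that share these markers were read beside them. Of the oligodendrocyte markers, Mobp, Olig2 and Opalin had 0 counts in every library and Mog was at most 0.174 CPM. These markers of the central myelin lineage, which also makes Mbp, were thus at or near 0. Cldn11, of the same list, was not, at 3.66 to 8.55 CPM per library. Its mean of 3.68 CPM per kb was above that of every member. The 2 markers tested, Olig1 and Cldn11, had log2 fold changes of -0.38 (SE 1.17) and 0.06 (SE 0.37), and both changed sign when single libraries were left out (Olig1 without control replicate 1, Cldn11 without control replicate 2, mutant replicate 1 or mutant replicate 2). Of 22 neuron and axon markers 12 could be tested, 8 higher and 4 lower in the mutants, and the list was uneven. Th and Snap25 were each at most 0.481 CPM in every library, while Uchl1 ran from 19.1 to 44.9, Stmn2 from 12.2 to 33.4, Tubb3 from 6.23 to 22.3, Npy from 4.27 to 11.3 and Dbh from 2.26 to 12 CPM. The neuronal list summed to between 140 and 153 CPM in the controls and between 132 and 168 CPM in the mutants, with a median log2 fold change of 0.03, and Hand2 alone made up 50.1 to 70 CPM of these sums. The smallest p of the list belonged to Hand2, a factor of sympathetic neurons and of heart mesenchyme, with a log2 fold change of 0.30 (SE 0.11). The next were Elavl4, at 0.71 (SE 0.50), and Gap43, at -0.47 (SE 0.36). Without mutant replicate 2 they were 0.36 and -0.84, and Gap43 was -0.27 without mutant replicate 3.

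Melanocytes are another neural crest derivative found in valves. Of 13 markers tested 11 were higher and 2 lower in the mutants, with a median log2 fold change of 0.66, and 0 passed the adjusted threshold. Their summed level was 294, 116 and 189 CPM in the controls and 308, 220 and 175 CPM in the mutants, so that the groups overlapped and control replicate 2 was the lowest. Mitf, the master factor of the lineage, was read at 12.5, 7.50 and 12.9 CPM in the controls and at 16.4, 13.9 and 21.7 CPM in the mutants (log2 fold change 0.66, SE 0.26, adjusted p = 0.999 in edgeR). Tyr and Kit had log2 fold changes of 0.72 (SE 0.38) and -0.47 (SE 0.24), which were 0.43 without control replicate 2 and -0.27 without control replicate 1. Of 9 macrophage markers tested 8 were higher and 1 lower in the mutants, with 0 past the adjusted threshold in edgeR and 1 in DESeq2. That gene, Lyz2 (lysozyme), named after its values were seen, had a log2 fold change of 0.46 (SE 0.15, adjusted p = 0.999 in edgeR and 0.00506 in DESeq2). The groups separated for 5 of the 9 markers (55.6%, against 8.87% of all genes). They summed to between 1439 and 1628 CPM in the controls and between 1897 and 2075 CPM in the mutants, without overlap, and their part in the level of Egr2, which macrophages also make, was not tested.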

How the data were processed

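The 3 control and 3 mutant libraries were made by the authors from total RNA of aortic valves, with a TruSeq kit. Their notes name TopHat2, Bowtie2, Cufflinks and Cuffdiff 2.1.1, and the mm10 build. Strand-specific counting and the annotation version are not given in the sources used here. The deposited values are estimated counts per gene, not scaled for library size. Between 1.66% and 1.87% of them per library were not whole and were rounded. Columns were matched to samples by their descriptions.

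The main test was the quasi-likelihood F test of edgeR 4.0.16 under R 4.3.3, with TMM and no covariates, on the 15354 genes for which 3 or more libraries held 10 or more counts, with Benjamini-Hochberg adjustment over all of them. Standard errors are the absolute log2 fold change divided by the root of F, and 95% intervals come from the t quantile at the test's degrees of freedom. Exon lengths and positions are from GENCODE M21 (GRCm38). The common coefficient of variation was 0.278. On simulated data of this comparison with 15354 genes, the fit recovered 28.9% of genes changed by a log2 fold change of 1 and 81.8% of those changed by 2. These rates are not those of the members, whose median SE was 0.36 against 0.19 for all genes tested. The adjusted threshold also depends on how many genes change, and the simulation called 122 genes against 0 in the data. Cuffdiff was not run, as aligned reads were not used here.

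The members and all gene lists were chosen with earlier results of these data known. Every member is named, and from each related list the 3 genes with the smallest unadjusted p, with the most abundant per kilobase in lists used to check the tissue. Genes named for their role or after their values were seen are Cadm3, Pllp, Nrg4, Lyz2, Acvr1, Sox10, Pmp22, S100b, Dhh, Ret, Mobp, Olig2, Opalin, Mog, Th, Snap25, Uchl1, Stmn2, Tubb3, Npy and Dbh. Some genes of these lists are not reported here by name. Alternatives were DESeq2 1.42.0, limma-voom (limma 3.58.1) with and without sample quality weights, other scalings and filters, a replicate block and leaving out each library.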

Additional observations from a re-analysis of the deposited data

How the results depend on the processing

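The number of genes past the threshold was 0 in edgeR under every scaling, filter, block and left-out library and in limma-voom, and 26 in DESeq2 (683 at an unadjusted p under 0.05, against 529 in edgeR). In DESeq2, 1 of the macrophage markers passed, and 0 of the members or of the genes in the other lists did. The median log2 fold change of the members was 0.04 to 0.15 under the alternatives that kept all libraries and all 8 members (0.07 with the replicate block), and ran from -0.24 to 0.24 when single libraries were left out. With a mean count of at least 100, Ngfr and Foxd3 were not tested, so no median over the 8 members was given. The direction turned for Mbp without control replicate 2 (0.12), for Gfra3 without mutant replicate 1 (-0.28), and for Erbb3 without mutant replicate 1 (-0.20), without control replicate 3 (-0.03) and in limma-voom once samples were weighted by quality (-0.0031). When single libraries were left out, the values ran from -0.69 to 0.12 for Mbp, from -0.28 to 0.71 for Gfra3 and from -0.20 to 0.23 for Erbb3. The other 105 values of single members kept their direction and their side of the threshold, but not always their size. With sample quality weights Mbp went from -0.41 to -0.04 and Gfra3 from 0.33 to 0.08. Cdh19 (0.35), Ngfr (-0.69) and Foxd3 (1.08) moved farther from 0 with these weights. Gfra3 was also 0.18 in limma-voom without weights and 0.12 with the replicate block. The cause was not tested.

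Same-numbered libraries correlated in their deviations from the group means with r of 0.289, 0.082 and 0.031 for replicates 1, 2 and 3, and the labels tie the numbers to no shared litter or day, so the numbers were not taken as pairs. Control replicate 2 correlated more closely with mutant replicate 3 (r = 0.2) than with mutant replicate 2. The fit with the replicate block called 0 genes, and 1 member, Prx, had an unadjusted p under 0.05 in it (log2 fold change -0.62, adjusted p = 0.901 in edgeR). Foxd3 had the fewest counts, 11 to 49 per library, and libraries of the same group also differed by more than counting error.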

Other observations

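The genes whose profile over the 6 libraries was most like the mean standardized profile of the members were, of 12635 candidates with a mean count of at least 100, 2010015L04Rik, Cacna1d, Zmynd11, Klhl7, Sfmbt1, Clec10a, Kcna2, Dad1, Smchd1 and Rasgef1c. Their Pearson correlations with that profile ran from 0.955 to 0.992. These values are a description with no test, since they were the highest of many over few libraries of the same tissue. The potassium channel gene Kcna2 was read at 4.61, 7.10 and 6.02 CPM in the controls and at 6.26, 2.99 and 8.38 CPM in the mutants, and the calcium channel gene Cacna1d at 4.87, 6.37 and 5.50 CPM and at 6.66, 3.59 and 8.29 CPM. Both were lowest in mutant replicate 2 and highest in mutant replicate 3, and in both the groups overlapped.

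Of the remaining markers, the perineurial list had 4 of 9 genes higher and 5 lower in the mutants, with a median log2 fold change of -0.18. Its smallest p belonged to Lypd2, at 0.522, 0.435 and 0.565 CPM in the controls and 0.193, 0.202 and 0.0628 CPM in the mutants (log2 fold change -1.68, SE 0.55, adjusted p = 0.999 in edgeR). These levels rest on few counts, 28, 22 and 26 in the controls and 10, 8 and 2 in the mutants. Cldn1 followed at -1.33 (SE 0.66) and Itgb4 at -0.31 (SE 0.19), and without control replicate 2, where Cldn1 was at 7.93 CPM against 1.11 to 2.24 CPM elsewhere, they were -0.23 and -0.11. Of the 10 adipocyte markers tested 10 were lower in the mutants (median -0.44), and the 3 smallest p belonged to Pck1 at -1.48 (SE 0.62), Lep at -1.47 (SE 0.73) and Cidea at -0.78 (SE 0.47). Without control replicate 1 Pck1 was at -0.87 and Cidea at -0.13, and without control replicate 2 Lep was at -0.96. Of the 6 mesothelial markers 6 were lower (median -0.74), with Krt19 at -0.97 (SE 0.84), Wt1 at -0.75 (SE 0.84) and Upk1b at -0.72 (SE 0.81), and each of these 3 was positive without control replicate 2, from 0.57 to 0.67. Smooth muscle markers were lower in 7 of 8 (median -0.87), with separate groups for Myh11 at -1.12 (SE 0.49), Tagln at -0.90 (SE 0.44) and Smtn at -0.87 (SE 0.33), 3 of 8 genes (37.5%, against 8.87% of all genes tested). Without control replicate 2, which had the highest smooth muscle sum, these were -0.56, -0.52 and -0.48. Cardiac muscle markers were higher in 10 of 12 (median 0.24), with the smallest p for Nppa at -0.93 (SE 0.68), Ttn at 0.37 (SE 0.43) and Ryr2 at 0.31 (SE 0.44). Nppa was 0.06 without control replicate 3, and Ttn and Ryr2 were -0.01 and -0.06 without control replicate 2. Valve interstitial markers were higher in 5 of 10 (median -0.08), with Bgn at -0.31 (SE 0.25), Pdgfra at -0.26 (SE 0.20) and Col1a2 at -0.24 (SE 0.20). Bgn was -0.13 without control replicate 2, Pdgfra -0.09 without mutant replicate 3 and Col1a2 -0.13 without mutant replicate 1. Endothelial markers were higher in 4 of 8 (median -0.06), with Emcn at -0.47 (SE 0.25), Kdr at -0.30 (SE 0.15) and Nfatc1, the locus of the Cre driver, at 0.23 (SE 0.17). Emcn and Kdr were -0.26 and -0.18 without control replicate 2, and Nfatc1 was 0.11 without control replicate 3. The macrophage genes with the smallest p were Cd68 at 0.40 (SE 0.12), C1qb at 0.38 (SE 0.11) and C1qa at 0.34 (SE 0.11), each with separate groups. In edgeR the adjusted p of each gene named here was 0.999. Outside the macrophage list DESeq2 called 0 genes of these lists.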
